A study of Mus musculus with 2 samples.

Results

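Sfrp2/Aldh1a3 fibroblasts are skin cells whose transcripts of Sfrp2, Aldh1a3, Sod3 and Pdpn outnumbered those of other fibroblast genes. A cell was called a rule fibroblast when it held at least 20 transcripts, at least 3 of them from Lum, Pdgfra, Col5a2 and Mmp2, and fewer than 3 from the keratinocyte genes Krt5, Krt15 and Col17a1. A rule fibroblast was an Sfrp2/Aldh1a3 fibroblast when Sfrp2, Aldh1a3, Sod3 and Pdpn together gave at least 3 transcripts. That sum also had to exceed both the sum of Mfap4, Igfbp2 and Apcdd1 and the sum of Igfbp3, Aspn and Thbs2. The rule kept 947 of 92679 cells, 393 in the Utx-cKO section and 554 in the WT section, out of 13892 rule fibroblasts. The tissue was whole skin of B6/129 female mice, cut at 5 µm from paraffin blocks and read by Xenium, in which probes for a 480-gene panel are imaged where they bind in the tissue. In the Utx-cKO skin, Krt14-Cre deleted Kdm6a (Utx), a histone H3 lysine 27 demethylase, in tissues that express keratin 14. Keratin 14 marks basal keratinocytes and hair follicles, so fibroblasts are outside the stated target of the deletion. The WT control section is described by its label and strain alone. Age, skin site and number of animals were not given in the sources used here.

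Dermal fibroblasts differ with depth: those close under the epidermis answer to Wnt signals and lie next to hair follicles, and deeper ones make the coarse collagen matrix or line fat, muscle and fascia. Sfrp2 is a secreted protein that binds Wnt ligands, Aldh1a3 oxidises retinaldehyde to retinoic acid, Sod3 is the superoxide dismutase of the extracellular space, and Pdpn (podoplanin) is a membrane glycoprotein found on some fibroblasts and on lymphatic endothelium.

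Each group had 1 section, so no test between Utx-cKO and WT was possible, and every interval below is a 95% interval for counting error only. Gene transcripts inside cells numbered 2442196 in the Utx-cKO section and 2645045 in the WT section. Each section held 4 separate strips of skin, numbered by position, and the labels tie none of them to an animal. Epithelial cells had Kdm6a at 2426 CPM in Utx-cKO skin and at 2895 CPM in WT skin, where CPM is the gene's count scaled to 1000000 transcripts of the same cells. Its log2 ratio there was -0.25 (-0.33 to -0.18), and the panel probe's place in the gene is not given, so this level does not check the deletion. 2 cell identifiers occur in both sections, which were decoded separately.

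Sfrp2 supplied most of the chosen sum. It made up 69.2% of the 4 genes' transcripts in Utx-cKO cells and 58.9% in WT cells, and had at least 1 transcript in 91.1% of Utx-cKO and 89.0% of WT Sfrp2/Aldh1a3 fibroblasts. Aldh1a3 was detected in 32.3% of the Utx-cKO cells and 35.6% of the WT cells, so the name holds for a minority as far as Aldh1a3 is concerned. Sod3 was detected in 44.8% of Utx-cKO and 58.3% of WT cells, and Pdpn in 41.7% of Utx-cKO and 59.4% of WT cells. Among the other rule fibroblasts, Sfrp2 was detected in 8.33% of Utx-cKO and 10.4% of WT cells. The cells were selected on these counts, which are given as a description.

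The combinations varied from cell to cell. Of the 393 Utx-cKO cells, 89 showed 1 of the 4 genes, 192 showed 2, 96 showed 3 and 16 showed all 4. Of the 554 WT cells, 74 showed 1 gene, 221 showed 2, 210 showed 3 and 49 showed all 4. Most cells were therefore known by 2 or more of the genes in both sections. Sfrp2 had the most transcripts of the 4 in 288 Utx-cKO and 345 WT cells, Aldh1a3 in 16 Utx-cKO and 24 WT cells, Sod3 in 21 Utx-cKO and 57 WT cells, and Pdpn in 27 Utx-cKO and 52 WT cells. The remaining 41 Utx-cKO and 76 WT cells had ties. At the threshold, 104 Utx-cKO and 132 WT cells stood at a sum of exactly 3, and 132 Utx-cKO and 163 WT rule fibroblasts with the same sum highest stood just outside at 2. The cells just inside lay at a median of 197 µm from the nearest epithelial cell in the Utx-cKO section and 247 µm in the WT section, and those just outside at 178 µm in Utx-cKO and 235 µm in WT. A further 183 Utx-cKO and 383 WT rule fibroblasts had a sum of 3 or more that was not the highest.

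Markers that the rule did not use were also read. Postn and Fn1, which encode the matrix proteins periostin and fibronectin, together reached 100657 CPM in Utx-cKO and 89933 CPM in WT Sfrp2/Aldh1a3 fibroblasts, against 41070.3 CPM in the other rule fibroblasts of the Utx-cKO section and 43658 CPM in those of the WT section. The 5 keratinocyte markers outside the rule summed to 917 CPM in Utx-cKO and 581 CPM in WT cells, the 4 blood endothelial markers to 1254 CPM in Utx-cKO and 700.04 CPM in WT, and the 3 pericyte and smooth muscle markers to 856 CPM in Utx-cKO and 521 CPM in WT. Fibroblast genes were thus high and those of these other cell types low. T cell receptor genes were near 0, with 5, 1 and 4 transcripts of Cd3e, Cd3d and Cd3g in the Utx-cKO cells and 7, 4 and 5 in the WT cells. Prox1, which defines lymphatic endothelium, another Pdpn-bearing cell type, had 8 transcripts in the Utx-cKO and 6 in the WT cells. It was under the count minimum for a comparison with other rule fibroblasts. With Stab1, also on the lymphatic list, it summed to 1101 CPM in Utx-cKO and 1996 CPM in WT cells. The other rule fibroblasts held 1507 CPM in Utx-cKO and 2358 CPM in WT. Macrophage markers were present: C1qa, C5ar1, Stab1 and Cd68 summed to 6513 CPM (5667 to 7449) in Utx-cKO cells and 13599 CPM (12731 to 14510.1) in WT cells, and at least 1 such transcript lay in 21.1% of Utx-cKO and 37.0% of WT cells. The other rule fibroblasts held 5952 CPM in the Utx-cKO section and 9980 CPM in the WT section, so macrophage transcripts were not restricted to the Sfrp2/Aldh1a3 fibroblasts. Fewer cells held at least 1 in each other set of rule fibroblasts, at 9.64% to 17.7% in Utx-cKO and 17.6% to 28.6% in WT. Sfrp2/Aldh1a3 fibroblasts also held more transcripts per cell. By CPM, rule fibroblasts in which none of the 3 sums both led and reached 3 stood higher, at 8930 in Utx-cKO and 13840 in WT. No dermal papilla or skeletal muscle marker of the lists is on the panel.

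The cells were large and deep in transcripts. They held a median of 77 transcripts and 45 genes in the Utx-cKO section and 113.5 transcripts and 58 genes in the WT section. Fibroblasts with the Mfap4/Igfbp2/Apcdd1 sum highest held 58 transcripts in Utx-cKO and 71 in WT, and those with the Igfbp3/Aspn/Thbs2 sum highest 65 in Utx-cKO and 93 in WT. The median segmented area was 162 µm2 in Utx-cKO and 155 µm2 in WT cells, the largest of the 4 sets of rule fibroblasts in each section. A cell with more transcripts passes a minimum sum more easily, so the depth bears on who was chosen.

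The cells lay far from the epithelium, a position that the rule did not use. The median distance to the nearest epithelial cell was 198 µm (quartiles 135 and 233) in the Utx-cKO section and 246 µm (quartiles 153 and 408) in the WT section. Fibroblasts with the Mfap4/Igfbp2/Apcdd1 sum highest lay at 14.2 µm in Utx-cKO and 18.1 µm in WT, those with the Igfbp3/Aspn/Thbs2 sum highest at 45.4 µm in Utx-cKO and 64.6 µm in WT, and the remaining rule fibroblasts at 49.3 µm in Utx-cKO and 49.6 µm in WT. The Sfrp2/Aldh1a3 fibroblasts were the farthest of the 4 sets in each section. Within 50 µm of epithelium there were 5 Sfrp2/Aldh1a3 fibroblasts (1.27%) in the Utx-cKO section and 9 (1.62%) in the WT section, while 93.1% of Utx-cKO and 89.2% of WT cells lay at 100 µm or more. Their share among rule fibroblasts was 0.0481% (0.00122 to 0.268) in Utx-cKO and 0.212% (0.0690 to 0.495) in WT within 25 µm. At 100 to 150 µm the share was 14.3% (11.8 to 17.1) in Utx-cKO and 10.5% (8.35 to 13.0) in WT, and at 200 to 300 µm it was 27.0% (23.7 to 30.5) in Utx-cKO and 24.4% (20.8 to 28.2) in WT. The share thus climbed with distance in both sections, and the intervals of the nearest and the deepest bins were far apart.

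**Figure D1:**
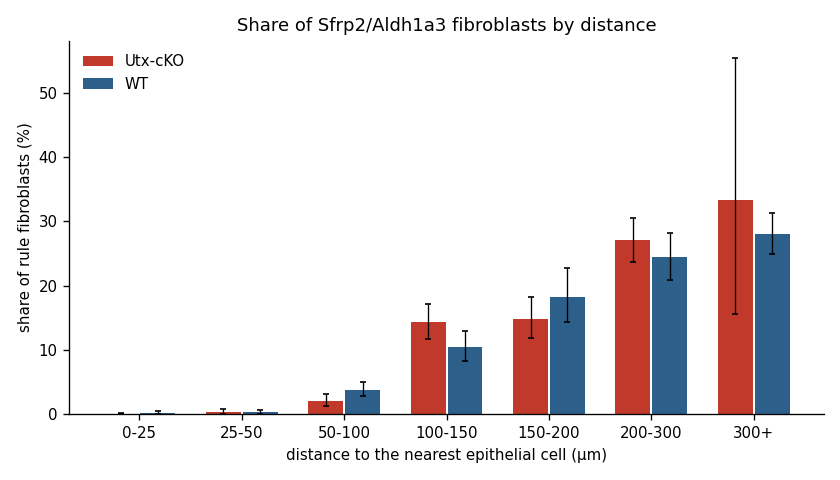
Sfrp2/Aldh1a3 fibroblasts as a share of rule fibroblasts (%, vertical axis) in bins of distance to the nearest epithelial cell (µm, horizontal axis), Utx-cKO in red left of WT in blue. Bars are shares and lines are exact 95% intervals for counting error; shares stay under 1% within 50 µm and reach 27.0% in Utx-cKO and 24.4% in WT at 200 to 300 µm.

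On the map many of the cells appeared to lie along the face of the skin opposite to the epidermis. As a measure of local depth, each cell's distance to the nearest epithelial cell was divided by a local maximum. This was the 99th percentile of the distances of cells of the same strip within 150 µm along the x axis, set as 100%. The measure has no direction, so it does not tell which face of the skin a cell lay on. The median was 89.4% of local depth in Utx-cKO and 86.1% in WT Sfrp2/Aldh1a3 fibroblasts, against 20.7% in the other rule fibroblasts of Utx-cKO and 21.6% in those of WT. At 80% of local depth or beyond stood 69.1% of the Utx-cKO and 70.9% of the WT cells, against 11.1% of the other rule fibroblasts in Utx-cKO and 13.1% in WT. By strip this share ran from 38.5% in strip 4 to 94.0% in strip 1 of the Utx-cKO section, and from 47.2% in strip 3 to 90.3% in strip 4 of the WT section. Medians by strip ran from 76.6% to 92.8% in the Utx-cKO section and from 78.4% to 97.4% in the WT section, all above every strip's value for other rule fibroblasts, whose highest was 30.8%. This measure of depth was added after the map had been seen.

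**Figure D2:**
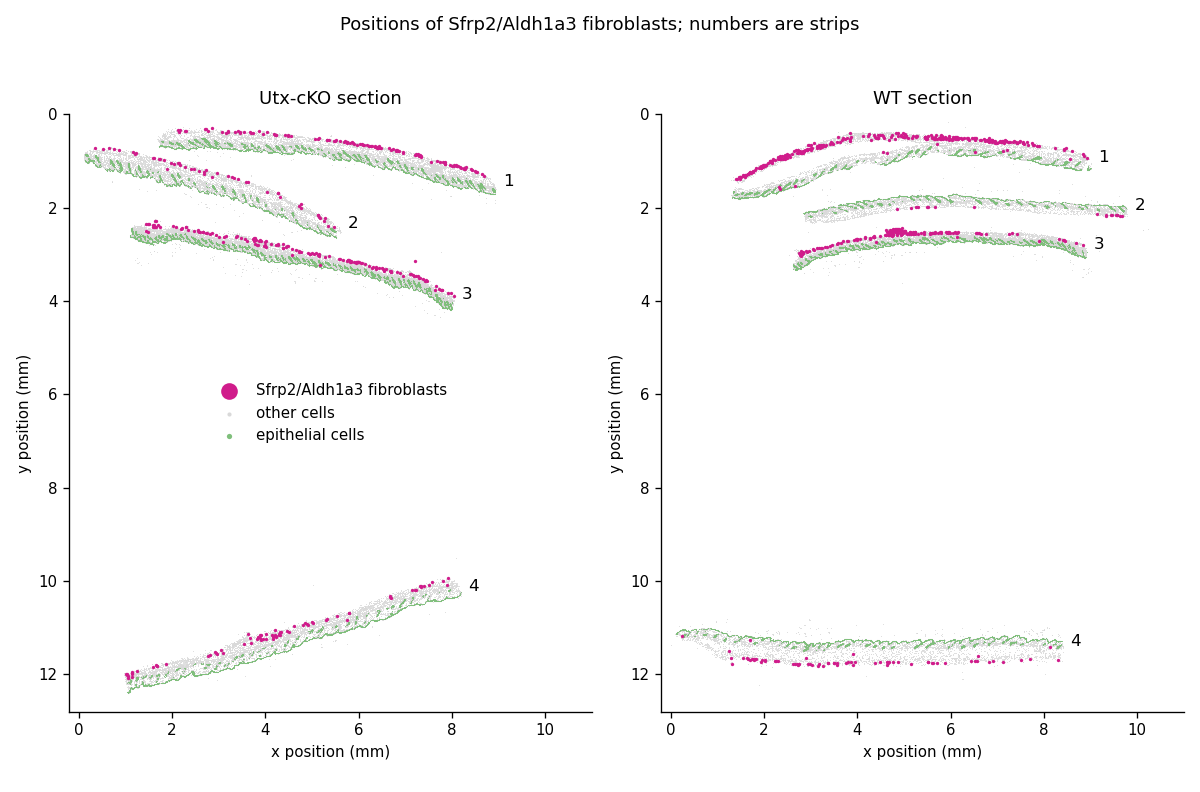
Positions (mm) of cells in the Utx-cKO section (left) and the WT section (right), with Sfrp2/Aldh1a3 fibroblasts in magenta, epithelial cells in green, other cells in grey and strips numbered 1 to 4. The median magenta cell lies at 76.6% of local depth or more in each of the 8 strips, where depth is the distance to the nearest epithelial cell relative to nearby cells.

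The share of rule fibroblasts that were Sfrp2/Aldh1a3 fibroblasts was 6.15% (5.58 to 6.77) in the Utx-cKO section and 7.38% (6.80 to 7.996) in the WT section. The strips of one section differed more than the sections did: the share was 11.5%, 4.66%, 4.40% and 8.32% in strips 1 to 4 of the Utx-cKO section and 12.5%, 2.88%, 4.58% and 7.35% in strips 1 to 4 of the WT section. When each cell was first thinned to 40 transcripts, leaving out 14029 Utx-cKO and 8845 WT cells that were shallower, the rule kept 4.57% (3.90 to 5.33) in the Utx-cKO section and 3.48% (2.95 to 4.08) in the WT section. The order of the sections turned round at equal depth. It also turned round among cells without a keratinocyte, endothelial, pericyte or T cell marker transcript, at 6.56% in Utx-cKO and 5.07% in WT. That filter left 148 Utx-cKO and 103 WT Sfrp2/Aldh1a3 fibroblasts, and deeper cells fail it more easily. Its T cell list includes Thy1. The list held 440 transcripts in Utx-cKO and 1196 in WT Sfrp2/Aldh1a3 fibroblasts, few of them from Cd3 genes. This setting is therefore not free of depth. No difference in share between Utx-cKO and WT was thus found that held in these settings.

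The cells lay near each other. Within 30 µm of an Sfrp2/Aldh1a3 fibroblast, 14.1% of neighbouring cells in the Utx-cKO section and 20.3% in the WT section were other Sfrp2/Aldh1a3 fibroblasts, while they made up 1.05% of all cells with at least 20 transcripts in the Utx-cKO section and 1.67% in the WT section. A cell counted as a macrophage when it was neither a rule fibroblast nor epithelial. It also needed at least 3 macrophage marker transcripts, more than of any other listed cell type. Rule fibroblasts with 3 or more were left out, among them 24 Utx-cKO and 88 WT Sfrp2/Aldh1a3 fibroblasts. Macrophages so defined made up 14.9% of the neighbours in Utx-cKO and 15.7% in WT. Of all cells with at least 20 transcripts they made up 3.64% in Utx-cKO and 4.52% in WT. As a share of cells with at least 1 macrophage neighbour, Sfrp2/Aldh1a3 fibroblasts, at 45.8% (40.8 to 50.9) in Utx-cKO and 50.4% (46.1 to 54.6) in WT, were close to fibroblasts with the Igfbp3/Aspn/Thbs2 sum highest, at 49.3% (47.1 to 51.4) in Utx-cKO and 47.3% (45.2 to 49.3) in WT, which had more neighbours, a median of 13 in Utx-cKO and 10 in WT. At 100 µm or more from epithelium the macrophage share was 15.8% in Utx-cKO and 18.2% in WT around Sfrp2/Aldh1a3 fibroblasts, and 9.004% in Utx-cKO and 12.7% in WT around other rule fibroblasts, so the contrast was smaller there. In WT strip 3 it ran the other way, with 3.03% around Sfrp2/Aldh1a3 fibroblasts and 4.23% around the others, both at 100 µm or more. The median number of neighbours was 4 in Utx-cKO and 6 in WT, against 5 in Utx-cKO and 6 in WT around other rule fibroblasts at 100 µm or more, so other deep fibroblasts had about as few.

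Outside the genes of the rule, 300 genes had at least 100 counts in each section over Sfrp2/Aldh1a3 fibroblasts and all other rule fibroblasts together. A ratio of 1.5 either way is a rule of size and not a test. In both sections 22 genes were at least 1.5-fold higher (7.33% of those compared) and 85 at least 1.5-fold lower (28.3%). The median log2 ratio of all 300 was -0.38 in the Utx-cKO section and -0.33 in the WT section, so the typical gene was lower in these cells on the CPM scale. The split moved with the scaling, to 46 higher and 50 lower on mean counts per cell and to 37 higher and 57 lower with ratios centred on their median.

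Akr1c18, a reductase of steroids and prostaglandins, led the higher genes. It stood at 8042 CPM in Utx-cKO Sfrp2/Aldh1a3 fibroblasts against 1966 CPM in the section's other rule fibroblasts, and at 7432 CPM against 1499.6 CPM in WT. The log2 ratio was 2.03 (1.82 to 2.24) in Utx-cKO and 2.31 (2.15 to 2.47) in WT. By strip it read 7106, 7928, 9590 and 5963 CPM in Utx-cKO strips 1 to 4 and 4497, 16322, 12478 and 9471 CPM in WT strips 1 to 4, and in each of the 8 strips it was past 1.5-fold over the other rule fibroblasts. Ptgs2, the inducible cyclooxygenase that starts prostaglandin synthesis, is described with the comparison of sections below, because its level rested on 1 strip.

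2 cytokines of the interleukin-1 family were among the 4 highest. Il18 stood at 3822 CPM in Utx-cKO Sfrp2/Aldh1a3 fibroblasts against 1007 CPM in others, and at 3694 CPM against 997 CPM in WT, log2 ratios of 1.92 (1.62 to 2.22) in Utx-cKO and 1.89 (1.67 to 2.11) in WT. Il33, an alarmin kept in the nucleus, stood at 3669 CPM against 1184 CPM in Utx-cKO and at 3575 CPM against 812 CPM in WT, log2 ratios of 1.63 (1.33 to 1.93) in Utx-cKO and 2.14 (1.91 to 2.37) in WT. Il18 was past 1.5-fold in 8 of 8 strips and Il33 in 7 of 8. The exception for Il33 was Utx-cKO strip 3, with 516 CPM in Sfrp2/Aldh1a3 fibroblasts and 569.7 CPM in others. Of the 7 chemokine and cytokine genes compared, Il33 was the 1 higher gene. Cxcl12, a chemokine for leukocytes bearing Cxcr4, and Ccl19, a lymphoid chemokine, were lower. Over all 300 genes the shares were 7.33% higher and 28.3% lower, so the list does not stand apart from them. Cxcl12 stood at 1223 CPM against 3460 CPM in Utx-cKO and at 1251 CPM against 3088 CPM in WT.

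Some retinoid genes besides Aldh1a3, a gene of the rule, also differed. Dhrs9, a dehydrogenase that oxidises retinol, stood at 1345 CPM in Utx-cKO Sfrp2/Aldh1a3 fibroblasts against 351 CPM in others, and at 1802 CPM against 447 CPM in WT, log2 ratios of 1.94 (1.41 to 2.44) in Utx-cKO and 2.01 (1.69 to 2.33) in WT. Crabp2, which carries retinoic acid to the nucleus, was lower, on 5 transcripts in Utx-cKO and 4 in WT. Retinoid genes thus moved both ways.

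Among 5 matrix genes outside the rule, Fn1 and Postn were higher and Tnc, which encodes tenascin C, lower. Fn1 stood at 49717 CPM in Utx-cKO Sfrp2/Aldh1a3 fibroblasts against 18154 CPM in others, and at 48258 CPM against 21155 CPM in WT, log2 ratios of 1.45 (1.37 to 1.53) in Utx-cKO and 1.19 (1.13 to 1.25) in WT. Its strips lay close together, at 58268, 45866, 44925 and 49106 CPM in Utx-cKO and 44105, 76169.7, 51332 and 62511 CPM in WT. Postn varied far more. It stood at 34108, 9909, 92358 and 6314 CPM in Utx-cKO strips 1 to 4 and at 29239.8, 26115, 79939 and 1378 CPM in WT strips 1 to 4. Strip 3 was highest and strip 4 lowest in each section. The Sfrp2/Aldh1a3 fibroblasts stood below the other rule fibroblasts of the same strip in Utx-cKO strip 4 (others 10068 CPM), in Utx-cKO strip 2 (others 14616 CPM) and in WT strip 4 (others 11430.3 CPM). The pooled log2 ratios of Postn, 1.15 (1.08 to 1.23) in Utx-cKO and 0.89 (0.83 to 0.95) in WT, therefore hid opposite strips.

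**Figure D3:**
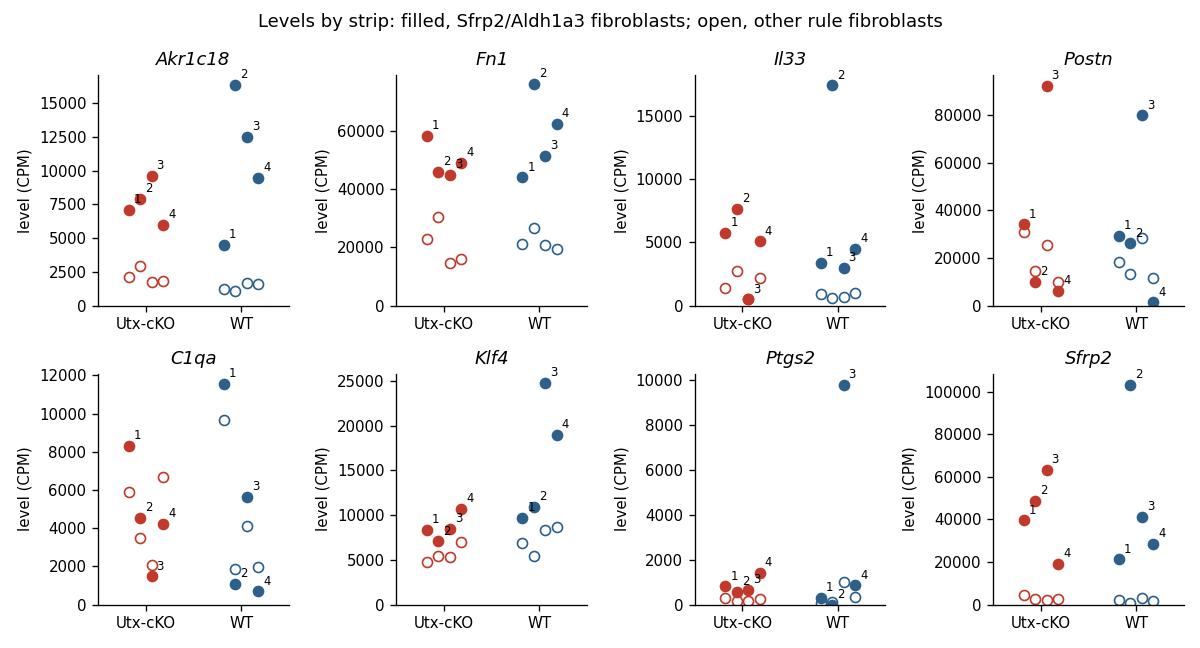
Levels (CPM, vertical axes) of 8 genes in each strip of the Utx-cKO section (red, left) and the WT section (blue, right), filled for Sfrp2/Aldh1a3 fibroblasts with the strip number beside the point and open for other rule fibroblasts. Fn1 and Akr1c18 are above the open points in every strip, Postn is high in strip 3 of each section, and Ptgs2 stands at 9789.5 CPM in WT strip 3 and at 1403 CPM or less elsewhere.

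Other higher genes covered receptors and growth factors. Axl, a receptor tyrosine kinase that binds Gas6, stood at 26938 CPM in Utx-cKO Sfrp2/Aldh1a3 fibroblasts against 9760.1 CPM in others, and at 24576 CPM against 10308 CPM in WT. Its log2 ratios were 1.46 (1.36 to 1.57) in Utx-cKO and 1.25 (1.17 to 1.33) in WT, and it was past 1.5-fold in 8 of 8 strips. Anxa1, the phospholipid-binding annexin A1, had log2 ratios of 1.12 (0.99 to 1.25) in Utx-cKO and 1.10 (1.01 to 1.18) in WT and was likewise past 1.5-fold in all 8 strips. Irf4, a transcription factor best known from lymphocytes, had 1.63 (1.39 to 1.86) in Utx-cKO and 1.02 (0.85 to 1.19) in WT, again in all 8. These genes stood out in every piece of skin. The next did so less evenly. Ramp2, a partner of the adrenomedullin receptor, had log2 ratios of 1.12 (0.88 to 1.36) in Utx-cKO and 0.95 (0.80 to 1.10) in WT, past 1.5-fold in 7 strips. Ptn (pleiotrophin, a heparin-binding growth factor) had 1.10 (0.76 to 1.42) in Utx-cKO and 1.07 (0.80 to 1.33) in WT but was past 1.5-fold in 3 of 8 strips. Duox1, an oxidase that releases hydrogen peroxide, had 1.06 (0.29 to 1.76) on 20 transcripts in Utx-cKO and 1.36 (0.90 to 1.80) on 56 in WT, and was lower in 2 of the Utx-cKO strips. Igfbp5, which binds insulin-like growth factors, had 0.67 (0.58 to 0.76) in Utx-cKO and 0.64 (0.58 to 0.70) in WT, was past 1.5-fold in 4 of 8 strips and was lower in WT strip 3 (-0.54). Further higher genes were Fads2, Fez1, Klf4, Myc, S100a13, Tfpi2, Tmem45a and Tubb2b.

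**Figure D4:**
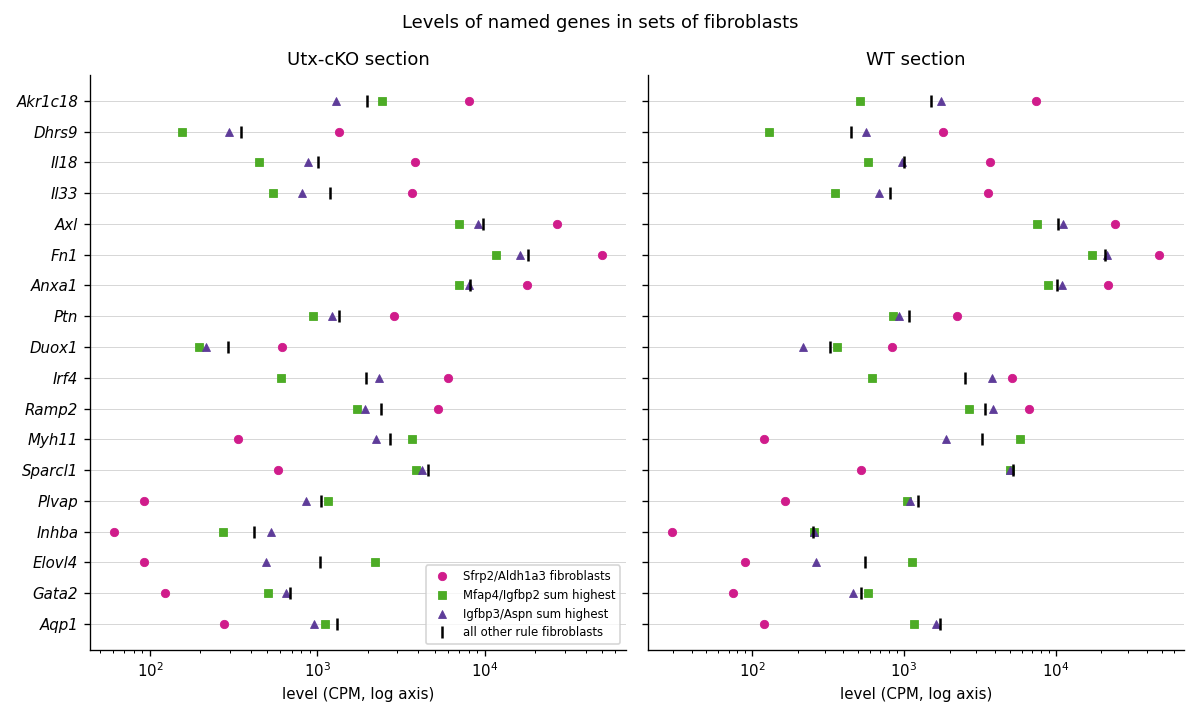
Levels (CPM, log axis) of 11 of the highest and 7 of the lowest genes in Sfrp2/Aldh1a3 fibroblasts (magenta circles), in fibroblasts with the Mfap4/Igfbp2/Apcdd1 sum highest (green squares), with the Igfbp3/Aspn/Thbs2 sum highest (purple triangles) and in all other rule fibroblasts (black bars), Utx-cKO left and WT right. The magenta circles are rightmost for the 11 upper genes, with Akr1c18 at 8042 CPM in Utx-cKO and 7432 CPM in WT, and leftmost for the 7 lower ones.

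The lower genes included those of other cell types and of lipid synthesis. Sparcl1, a secreted relative of the matrix protein osteonectin, stood at 581 CPM in Utx-cKO Sfrp2/Aldh1a3 fibroblasts against 4594 CPM in others, and at 521 CPM against 5248 CPM in WT, log2 ratios of -2.98 (-3.72 to -2.34) in Utx-cKO and -3.33 (-3.86 to -2.85) in WT. Myh11, the smooth muscle myosin, had -3.01 (-4.02 to -2.16) on 11 transcripts in Utx-cKO and -4.78 (-5.99 to -3.80) on 8 in WT. Plvap, of endothelial diaphragms, had -3.53 (-5.81 to -1.97) in Utx-cKO and -2.92 (-3.93 to -2.07) in WT, and the water channel Aqp1 -2.26 (-3.39 to -1.32) in Utx-cKO and -3.86 (-5.07 to -2.87) in WT. All 4 blood endothelial, all 3 pericyte and 3 of 4 keratinocyte markers compared were lower, against 28.3% of all 300 genes. So were both mast cell, 2 of 3 melanocyte, 1 of 1 dendritic and 1 of 1 Schwann cell markers. None of the 4 macrophage markers, the 1 lymphatic marker or the 1 T cell marker compared was lower. The mast cell transcription factor Gata2 (4 transcripts in Utx-cKO and 5 in WT) reached the count minimum through the other rule fibroblasts. Inhba, an activin subunit, had -2.78 (-5.84 to -0.90) in Utx-cKO and -3.09 (-6.15 to -1.21) in WT, each on 2 transcripts. Elovl4, an elongase of very long fatty acids, had -3.50 (-5.79 to -1.94) on 3 transcripts in Utx-cKO and -2.64 (-4.09 to -1.50) on 6 in WT. These intervals are wide because so few transcripts lay in the cells.

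Of the 9 adipose and lipid genes compared, 8 were lower and none was higher, against 28.3% lower and 7.33% higher among all 300. Scd1, the stearoyl-CoA desaturase, stood at 2507 CPM in Utx-cKO Sfrp2/Aldh1a3 fibroblasts against 6654 CPM in others, and at 2815 CPM against 11519 CPM in WT. Fasn, the fatty acid synthase, stood at 1223 CPM against 4837 CPM in Utx-cKO and at 1028 CPM against 5255 CPM in WT. The median log2 ratio over the list was -1.29 in Utx-cKO and -2.03 in WT, below the medians of all 300 genes given above. The 3 adipocyte markers compared (Pparg, Cd1d1 and Ptger3) are among these 8 lower genes and add no separate evidence. Of the 7 chromatin genes compared, 1 was lower and none higher, against 28.3% lower and 7.33% higher among all 300. The lower gene was Ezh2, the methyltransferase that writes the mark Kdm6a removes. Ezh2 stood at 519.8 CPM against 1153 CPM in the others of Utx-cKO and at 521 CPM against 1107 CPM in the others of WT. Of the Wnt genes outside the rule, 1 of 3 was lower (Lef1, a transcription factor of the pathway, on 6 transcripts in each section). Lists of 7 and 3 genes are too small to set apart from the shares over all 300.

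The contrast of the higher genes was smaller among cells of the deep skin. Comparing Sfrp2/Aldh1a3 fibroblasts with other rule fibroblasts that also lay at 100 µm or more from epithelium, 174 genes could be compared, of which 11 were higher (6.32%) and 35 lower (20.1%). Of the 22 genes higher over all others, 19 could be compared there and 10 were still past 1.5-fold in both sections. Of the 85 lower genes, 35 could be compared there and 30 were still past 1.5-fold in both sections. Akr1c18 had log2 ratios of 1.29 in Utx-cKO and 1.25 in WT, Dhrs9 1.12 in Utx-cKO and 1.04 in WT, Il18 1.00 in Utx-cKO and 1.11 in WT, Fn1 0.79 in Utx-cKO and 0.82 in WT, Axl 0.74 in each, and Sparcl1 -3.53 in Utx-cKO and -3.35 in WT. Il33 had 0.48 in Utx-cKO and 1.20 in WT and no longer passed in both sections, nor did Irf4 (0.59 in Utx-cKO and 0.41 in WT) or Ramp2 (0.45 in Utx-cKO and 0.74 in WT). The ratios of these higher genes were thus smaller among deep cells, while the lower gene Sparcl1 had ratios at least as far from 0 as over all other rule fibroblasts.

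Against the fibroblasts with the Mfap4/Igfbp2/Apcdd1 sum highest, 20 of 135 genes were higher (14.8%) and 22 lower (16.3%). Against those with the Igfbp3/Aspn/Thbs2 sum highest, 20 of 202 were higher (9.90%) and 39 lower (19.3%). Postn separated these references, with log2 ratios of 2.49 in Utx-cKO and 2.64 in WT over the first set, where it stood at 9053 CPM in Utx-cKO and 6707 CPM in WT. Over the second set its ratios were 0.70 in Utx-cKO and 0.35 in WT, with that set at 31439 CPM in Utx-cKO and 32589 CPM in WT. Irf4 likewise had 3.32 in Utx-cKO and 3.05 in WT over the first set, and 1.36 in Utx-cKO and 0.43 in WT over the second.

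Within the Sfrp2/Aldh1a3 fibroblasts, those led by Sfrp2 were set against those led by another of the 4 genes or tied. Of 54 genes, 1 was higher in both sections (1.85%) and 0 lower (0.00%). The higher gene was Postn, at 63270.2 CPM in 288 Sfrp2-led Utx-cKO cells against 15957 CPM in the other 105, and at 49384 CPM in 345 Sfrp2-led WT cells against 29346 CPM in the other 209. Its log2 ratio was 1.99 (1.73 to 2.25) in Utx-cKO and 0.75 (0.63 to 0.87) in WT. The strips filled the groups unequally: Sfrp2-led cells were 94.6% of the cells in Utx-cKO strip 3 and 86.2% in WT strip 3, where Postn was high, and 24.4% in Utx-cKO strip 4 and 36.1% in WT strip 4, where it was low. Within strips 1 to 4 the ratio was 0.16, -0.12, 1.55 and -1.67 in Utx-cKO, the third against 8 cells and the fourth on 3 transcripts in Sfrp2-led cells. In WT it was 0.03, 0.23 and 0.77 in strips 1, 3 and 4, the last on 4 transcripts in each set, and all 18 cells of strip 2 were Sfrp2-led. The pooled difference in Postn was therefore not found within most strips.

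Position also ordered some genes among these cells. Postn stood at 67485, 67840.2 and 32214 CPM in Utx-cKO cells under 100 µm, at 100 to 200 µm and at 200 µm or more from epithelium, and at 71135, 69582.5 and 26743 CPM in WT cells. Igfbp5 stood at 12269.9, 30806 and 39316 CPM in Utx-cKO and at 21021, 16688 and 50597 CPM in WT over the same bins, so the deepest bin was lowest for Postn and highest for Igfbp5 in both sections. These bins held 27, 175 and 191 cells in Utx-cKO and 60, 140 and 354 in WT, and they were filled unequally by the strips.

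Between the sections, 143 genes outside the rule had at least 100 counts over both sets of Sfrp2/Aldh1a3 fibroblasts. Utx-cKO was at least 1.5-fold higher for 4 genes (2.80%) and at least 1.5-fold lower for 19 (13.3%). The median log2 ratio of Utx-cKO over WT was -0.06. On mean counts per cell, where the lower depth of Utx-cKO cells counts in full, 0 genes were higher and 75 lower. The strips of the sections overlapped for 142 of the 143 genes, and Lpcat3, a phospholipid acyltransferase with a log2 ratio of 0.55 (-0.02 to 1.11), was the exception with all 4 Utx-cKO strips above all 4 WT strips. The overlap is a weak measure, since WT strip 2 held 18 cells and 1 transcript there is 1088 CPM. It does not show that the other 142 genes were alike in the sections.

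Kdm6a itself stood at 1743 CPM (57 transcripts) in Utx-cKO and 2175 CPM (146 transcripts) in WT Sfrp2/Aldh1a3 fibroblasts, a log2 ratio of -0.32 (-0.79 to 0.13), and its interval included 0. In other rule fibroblasts the ratio was -0.13 (-0.25 to -0.01). By strip it stood at 1523, 1982, 2139 and 1052 CPM in Utx-cKO and at 2236, 1088, 2181 and 1894 CPM in WT, so the strips overlapped. Kdm6b, the related demethylase, had a log2 ratio of 0.04 (-0.46 to 0.52), and Kmt2a, a histone H3 lysine 4 methyltransferase, 0.11 (-0.36 to 0.58). Kmt2c, another enzyme of that kind, was 1 of the 4 higher genes, at 2018 CPM in Utx-cKO and 1206 CPM in WT with a log2 ratio of 0.74 (0.25 to 1.23).

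The other higher genes were Hmgb2, a chromatin protein of the high mobility group, Sprr2a1, a cornified envelope protein of keratinocytes, and Dbi, an acyl-CoA-binding protein. Hmgb2 stood at 3486 CPM in Utx-cKO and 1921 CPM in WT, with a log2 ratio of 0.86 (0.48 to 1.23), and its strips ran from 1982 to 5437 CPM in Utx-cKO and from 1106 to 3449 CPM in WT. Sprr2a1 had 0.69 (0.12 to 1.26) and Dbi 0.66 (0.17 to 1.14). In the other rule fibroblasts Sprr2a1 was also past 1.5-fold at 0.72, while Hmgb2 and Kmt2c had 0.16 each and Dbi -0.36.

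Ptgs2 had the lowest ratio of the 19 lower genes, and 1 strip carried it. It stood at 826 CPM (27 transcripts) in Utx-cKO and 3128 CPM (210 transcripts) in WT Sfrp2/Aldh1a3 fibroblasts, a log2 ratio of -1.92 (-2.56 to -1.34). By strip it stood at 812, 566, 664 and 1403 CPM in Utx-cKO and at 295, 0, 9789.5 and 861 CPM in WT. WT strip 3 held 193 of the 210 WT transcripts, in 94 of its 159 Sfrp2/Aldh1a3 fibroblasts (59.1%, 51.1 to 66.8), and without that strip the log2 ratio was 1.20, with Utx-cKO higher. The Ptgs2 transcripts lay along the strip in each 1 mm step from 2 to 9 mm, with 16.7% to 72.7% of Sfrp2/Aldh1a3 fibroblasts holding one, against 1.89% to 10.8% of other rule fibroblasts in the same steps. The other rule fibroblasts of WT strip 3 stood at 1023 CPM, also the highest of the 8 strips. Klf4, a transcription factor, was likewise highest in WT strip 3, at 24803 CPM, against 9656, 10881 and 18943 CPM in WT strips 1, 2 and 4 and 7078 to 10698 CPM in the Utx-cKO strips, and its log2 ratio between sections was -0.78 (-0.98 to -0.59).

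Several of the other lower genes are known from myeloid cells. C1qa, a complement subunit made by macrophages, stood at 4342 CPM in Utx-cKO and 8728 CPM in WT, with a log2 ratio of -1.01 (-1.28 to -0.74). By strip C1qa stood at 8324, 4530.01, 1475 and 4209 CPM in Utx-cKO and at 11548.5, 1088, 5630.2 and 689 CPM in WT, so strip 1 was highest in each section and the strips overlapped. The macrophage genes Cd68 and Stab1 had log2 ratios of -1.54 (-2.24 to -0.89) and -1.16 (-1.80 to -0.56), and Fcer1g, an Fc receptor subunit of myeloid and mast cells, -1.10 (-1.60 to -0.64). Pla2g2d, a secreted phospholipase A2, had -1.83 (-2.79 to -0.99) on 13 transcripts in Utx-cKO and 95 in WT. Pltp, a phospholipid transfer protein, had -1.05 (-1.38 to -0.74), the leukocyte gene Arhgdib -0.96 (-1.40 to -0.53), Alox5ap, of leukotriene synthesis, -0.93 (-1.46 to -0.42) and the protease Ctsz -0.81 (-1.15 to -0.48). Without WT strip 1 the ratios of Pla2g2d (1.39), Fcer1g (0.13) and Pltp (0.38) were positive. All 3 macrophage markers with enough counts were among the 19. The remaining lower genes were Tyrobp, Rara, Ednrb, Gpx1, Pbxip1, Insig1, Il1r2 and Cat.

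The same macrophage signal moved with the strips: the 4 markers summed to 12689, 5946, 2508 and 5787 CPM in Utx-cKO strips 1 to 4 and to 17568, 1088, 9739 and 861 CPM in WT strips 1 to 4. WT strip 1 held 305 of the 554 WT cells. Without it, 5 genes were lower and 12 higher among 96 compared, and 2 of the 19 were among the lower ones. Without Utx-cKO strip 3, 13 genes were lower, 7 of the 19 among them, and 10 higher, and without WT strip 3, 24 were lower and 9 higher. Without cells holding any C1qa, C5ar1, Stab1 or Cd68 transcript, 97 genes could be compared, 9 were lower and 5 of the 19 were among them. C1qa, Cd68 and Stab1 are among the 19, so their loss was fixed by the filter. Other losses can come from genes that fell under 100 counts. In the other rule fibroblasts, 18 of the 19 genes also had a negative ratio and 8 were past 1.5-fold. The same shares over all genes compared are not given here, so these counts do not set the 19 apart. Transcripts of macrophages lying over or beside these cells and transcripts made in them cannot be told apart here, and their part in the lower genes was not tested.

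**Figure D5:**
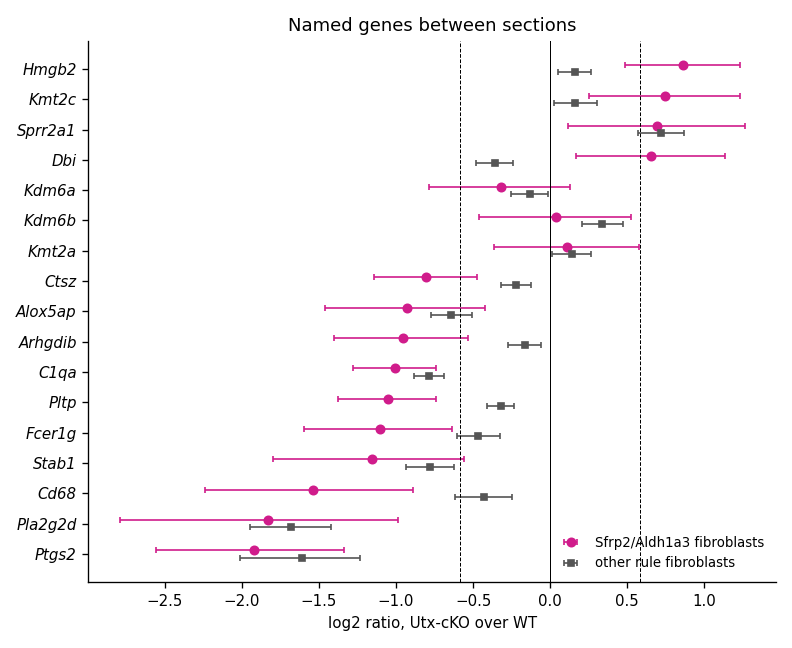
Log2 ratios of Utx-cKO over WT (horizontal axis) for the named genes in Sfrp2/Aldh1a3 fibroblasts (magenta circles) and in other rule fibroblasts (grey squares), with exact 95% intervals for counting error; dashed lines mark 1.5-fold either way. Ptgs2 is lowest in Sfrp2/Aldh1a3 fibroblasts at -1.92 and Hmgb2 highest at 0.86, and the interval of Kdm6a includes 0.

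Of the 22 genes that were higher in these cells than in other rule fibroblasts, 20 could be compared between sections, and 1, Klf4, was past 1.5-fold. The median log2 ratio of Utx-cKO over WT over the 20 was 0.03. Akr1c18 had a log2 ratio of Utx-cKO over WT of 0.11 (-0.11 to 0.33), Il33 0.04 (-0.29 to 0.36) and Fn1 0.04 (-0.04 to 0.13). Of the genes of the rule, Sfrp2 stood at 46812 CPM in Utx-cKO and 28821 CPM in WT, Aldh1a3 at 5687 CPM in Utx-cKO and 4066 CPM in WT, Sod3 at 7430.1 CPM in Utx-cKO and 8073 CPM in WT and Pdpn at 7736 CPM in Utx-cKO and 8013 CPM in WT. These last levels are set in part by the minimum sum in cells of unequal depth and carry no comparison. The Sfrp2 strips spanned 19116 to 63146 CPM in Utx-cKO and 21205 to 103373 CPM in WT, the highest being WT strip 2 with 18 cells.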

How the data were processed

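Xenium sections of 1 Utx-cKO and 1 WT skin were analysed. The deposited cell tables hold counts of transcripts, cell positions and areas, and the deposited transcript tables give each transcript's gene, cell and a decoding quality score of at most 40, per the file headers. Software for decoding and segmentation: not given in the sources used here. Transcripts with a score of at least 20 were counted per cell, which equals the deposited count in all 52308 Utx-cKO and 40371 WT cells. Negative control probes gave 1 transcript in Utx-cKO and 4 in WT Sfrp2/Aldh1a3 fibroblasts, against 32705 and 67139 gene transcripts. No doublet caller was run. The members and the gene lists were chosen with earlier results of these data known.

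Per set of cells, each gene's summed count was scaled to the panel total (CPM). Ratios are log2 ratios of CPM with exact conditional binomial 95% intervals, CPM intervals are Poisson and shares Clopper-Pearson. A gene needed 100 counts over the sets compared, so a lower gene could enter through its counts in the other set, and a ratio of 1.5 is a rule of size. As each group is 1 section, no test was possible, and section, animal and genotype cannot be told apart. Strips are connected areas on a 75 µm grid with at least 1000 cells and are not replicates. Epithelial cells had at least 5 transcripts of Krt5, Krt15, Col17a1, Krt1 and Krt79, and a neighbour lay within 30 µm. Named genes are those of the rule, Kdm6a, Kdm6b and Kmt2a, the 12 highest and 8 lowest by the smaller of the sections' ratios against other rule fibroblasts, up to 10 either way between sections, and list members with the largest ratios. Klf4, Ezh2 and Lpcat3, like the further higher genes listed by name, were named after their values were seen. Some genes that this rule names are not reported here.

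Alternatives were a score of 30, cells with 40 transcripts, a sum of 5, 2 of the 4 genes detected, cells without transcripts of other types, nuclear transcripts, CPM without the rule's genes, mean counts per cell, median-centred ratios, thinning to 20 transcripts and a gene minimum of 30. Distances of 100 µm or more, cells without macrophage transcripts, the rule on thinned cells and leaving out each strip were chosen after seeing the data. The setting without transcripts of other types dropped any cell with a transcript of the rule's keratinocyte genes or the endothelial, pericyte or T cell lists. Thy1 counted in the T cell list. The ratios and their intervals were tested on simulated data. Python 3.11.15 with numpy 2.4.6, pandas 2.3.3, scipy 1.17.1 and matplotlib 3.10.9 was used.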

Additional observations from a re-analysis of the deposited data

How the results depend on the processing

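No paired analysis was possible because each group has 1 section. In Utx-cKO over WT, 4 genes were higher and 19 lower. Higher and lower counts were 2 and 3 without transcripts of other cell types, 1 and 7 over nuclei, 0 and 75 on mean counts per cell, 0 and 4 with cells thinned to 20 transcripts, and 21 and 32 with a gene minimum of 30. The higher count was 2 with a score of 30, 2 with a sum of 5 and 2 at 100 µm or more, and the lower count was 9 without cells holding macrophage transcripts. On mean counts per cell all ratios between sections shift by -0.54, and those against other rule fibroblasts by 0.46 in Utx-cKO and 0.55 in WT, since the cells' depth differs. Against other rule fibroblasts, 22 genes were higher and 85 lower in both sections. Higher and lower counts were 46 and 50 on mean counts per cell and 11 and 35 at 100 µm or more. The higher count was 37 with median-centred ratios, and the lower count was 28 without transcripts of other cell types, 55 over nuclei and 36 with thinned cells. Fewer genes reached the count minimum in the thinned, nuclear and other-cell-type settings. Between sections, 114 of 143 genes could be compared with a score of 30, 101 with a sum of 5 and 97 without macrophage transcripts. A gene minimum of 30 raised this to 220. Against other rule fibroblasts, 174 of 300 could be compared at 100 µm or more. The cause of the moves was not tested.

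The share of rule fibroblasts, 6.15% in Utx-cKO and 7.38% in WT, was 8.03% and 8.61% in cells with 40 transcripts, 3.19% and 4.37% with a sum of 5, 4.76% and 6.39% with 2 genes detected, and 4.57% and 3.48% with the rule on cells thinned to 40 transcripts. Without transcripts of other cell types it was 6.56% in Utx-cKO and 5.07% in WT, which turned the order of the sections round, and without macrophage transcripts it moved in WT alone, to 6.23%. The median distance, 198 µm in Utx-cKO and 246 µm in WT, was 173 and 218 µm without transcripts of other cell types, 165 and 202 µm with the rule on thinned cells, and 231 µm in WT with a sum of 5.

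Leaving out 1 strip at a time gave 3 to 12 higher and 5 to 24 lower genes between sections, 18 to 23 higher and 39 to 85 lower genes against other rule fibroblasts, shares of 5.15% to 8.14% in Utx-cKO and 4.91% to 9.78% in WT, and distances of 163 to 222 µm in Utx-cKO and 147 to 325 µm in WT. Utx-cKO strip 3 and WT strips 1 and 3 moved the counts most. Sign changes were recorded only for genes named for their ratios whose main ratio was past 1.5-fold, so changes of ratios nearer 0 are not listed. Between sections, leaving out a strip changed the sign for Pla2g2d (-3.43 to 1.39), Fcer1g (-1.72 to 0.13) and Pltp (-1.80 to 0.38), each positive without WT strip 1. The sign also changed for Ptgs2 (-3.18 to 1.20), positive without WT strip 3. Other sign changes were Stab1 (0.17) in thinned cells, Kmt2c (-0.23) and Pla2g2d (0.65) without transcripts of other cell types, and Duox1 against other rule fibroblasts in Utx-cKO without those transcripts (-1.22) and in thinned cells (-0.59). Ratios under these alternatives were read for a short list, the highest and lowest genes of each comparison and, between sections, Kdm6a, Kdm6b and Kmt2a. Of these ratios, sign changes included, 276 of 336 between sections and 641 of 783 against other rule fibroblasts moved by less than their counting interval. The other genes compared are not covered. Genes near 100 counts and strips with few cells, such as WT strip 2 with 18, limit the precision.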
